A study of Rattus norvegicus with 4 samples.

Results

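The postsynaptic density is the protein mesh under the membrane of excitatory synapses, and the genes described here code for its main scaffolds. The set was given as 9 symbols: Dlg1, Dlg2, Dlg3 and Dlg4, Shank1, Shank2 and Shank3, Homer1, and Dlgap1. Members were the rows of the deposited gene count table that carry one of these symbols, 1 row per Ensembl identifier. 8 of the 9 symbols had such a row, out of 21648 gene identifiers in the table, and Shank3 was not analysed here. Neurons of the cortex of rat embryos of day 18 had been cultured with topotecan or with DMSO, the solvent control, and RNA was sequenced from 2 libraries per treatment. Topotecan inhibits topoisomerase I, which relaxes the DNA twist that builds up ahead of a transcribing polymerase, and the submitters' stated purpose was to reduce long gene expression. All 4 libraries came from commercially supplied rat cortex cells, plated in a neural induction medium and then kept in a neuronal medium. Neither the dose of topotecan nor its duration is stated by the sources used, and it is not said that the 2 libraries of a treatment came from separate cultures. The p-values therefore measure the spread between these libraries, which may be technical.

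In the postsynaptic density, the Dlg proteins form the layer nearest the membrane. They belong to the membrane-associated guanylate kinases (MAGUKs) and hold glutamate receptors, potassium channels and adhesion molecules through their PDZ domains. Dlgap proteins bind the guanylate kinase domain of the Dlg proteins and link them to the PDZ domain of the Shank proteins, which in turn bind Homer. Homer proteins tie this deeper layer to group I metabotropic glutamate receptors and to calcium release channels of internal stores.

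The libraries held 31181382 and 25459488 gene counts in topotecan and 27347410 and 22957786 in DMSO. Pan-neuronal markers were abundant in all 4 libraries, with summed levels of 35546 and 36569 CPM (counts per 1e6 library counts, after scaling) in topotecan and 32180 and 29610 CPM in DMSO, so the labelled cell type was present. Of 18 tested pan-neuronal markers 7 were higher (38.9%) and 4 lower (22.2%) in topotecan, and their median log2 fold change was 0.20. Of all genes tested 16.2% were higher and 23.5% lower, the shares to set beside each marker count given here. Of the 2 most abundant, Tubb3, a neuronal tubulin, was at 0.35 (SE 0.09) with TMM and Stmn2, a microtubule regulator, at 0.04 (SE 0.06). The cultures also held glia. All 15 tested astrocyte markers were lower in topotecan, with summed levels of 798 and 867 CPM in topotecan and 7173 and 7036 CPM in DMSO. All 13 tested oligodendrocyte markers were lower as well, at 137 and 123 CPM in topotecan and 4101 and 4406 CPM in DMSO in sum, and so were 8 of 9 radial glia and progenitor markers. None of the 12 microglia markers in the table reached 20 counts in any library. In bulk RNA, fewer cells of a type and less RNA per cell cannot be told apart. The part of the glial genes in the values of the scaffold genes was not tested. Top1, the gene of topotecan's target, had counts of 0 and 0 in topotecan and 1 and 2 in DMSO, too few to test. The authors' annotation was not given in the sources used, so these counts do not show that the gene was silent.

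Of the 8 scaffold genes 3 fell in topotecan and none rose. Dlgap1 was at 43.5% of its DMSO level, Dlg2 at 50.3% and Dlg1 at 66.6%, while Dlg3, Dlg4, Shank1, Shank2 and Homer1 did not pass the test. The share of members that fell was 37.5%, beside 23.5% of all 12162 genes tested that were lower (quasi-likelihood test of edgeR, adjusted p under 0.05 by Benjamini-Hochberg). Of all genes tested 16.2% were higher. The median log2 fold change, topotecan over DMSO, was -0.30 over the 8 scaffold genes and -0.01 over all genes. All 8 passed the low-count filter. In 6 of the 8 both topotecan libraries lay below both DMSO libraries, an order that 36.9% of all tested genes showed. The 3 genes that fell were, after Shank2 is set aside for its few counts, the 3 with the longest span from start to end of the gene.

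The sequences around the annotated start sites are shown for the 3 genes that fell, and for Dlg4 as a member of the same family that did not pass. They come from RefSeq on the rat assembly GRCr8, whose table of start sites held 5 of the 8 genes. A window holds 250 bases before and 50 bases after a start, written 5′ to 3′, with CpG dinucleotides in capitals.

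Dlg2, chr1:154539421-154539720 (+ strand): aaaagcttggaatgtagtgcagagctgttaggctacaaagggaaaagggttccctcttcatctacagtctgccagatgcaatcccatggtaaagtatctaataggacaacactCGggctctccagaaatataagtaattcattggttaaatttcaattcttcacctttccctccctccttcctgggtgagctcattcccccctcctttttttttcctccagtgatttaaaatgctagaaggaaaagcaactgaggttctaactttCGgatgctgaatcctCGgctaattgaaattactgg
Dlgap1 upstream start, chr9:117613834-117614133 (+ strand): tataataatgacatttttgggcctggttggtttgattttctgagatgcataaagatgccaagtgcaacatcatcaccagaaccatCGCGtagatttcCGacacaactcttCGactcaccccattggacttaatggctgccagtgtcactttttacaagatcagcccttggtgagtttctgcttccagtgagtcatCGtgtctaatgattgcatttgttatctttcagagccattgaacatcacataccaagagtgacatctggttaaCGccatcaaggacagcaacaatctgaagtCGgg
Dlgap1 downstream start, chr9:117864208-117864507 (+ strand): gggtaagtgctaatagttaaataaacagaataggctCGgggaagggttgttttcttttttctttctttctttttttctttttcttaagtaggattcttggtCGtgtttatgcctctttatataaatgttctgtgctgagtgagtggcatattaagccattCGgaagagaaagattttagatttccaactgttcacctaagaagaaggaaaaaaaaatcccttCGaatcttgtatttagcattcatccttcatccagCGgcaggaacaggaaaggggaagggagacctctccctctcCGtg
Dlg1, chr11:82607748-82608047 (- strand): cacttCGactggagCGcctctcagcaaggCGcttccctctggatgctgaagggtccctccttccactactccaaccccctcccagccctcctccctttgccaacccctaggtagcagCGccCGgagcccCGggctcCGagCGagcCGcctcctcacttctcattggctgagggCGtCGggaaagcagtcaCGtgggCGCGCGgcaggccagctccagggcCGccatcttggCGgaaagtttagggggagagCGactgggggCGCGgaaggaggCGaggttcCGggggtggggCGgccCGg
Dlg4, chr10:55239534-55239833 (+ strand): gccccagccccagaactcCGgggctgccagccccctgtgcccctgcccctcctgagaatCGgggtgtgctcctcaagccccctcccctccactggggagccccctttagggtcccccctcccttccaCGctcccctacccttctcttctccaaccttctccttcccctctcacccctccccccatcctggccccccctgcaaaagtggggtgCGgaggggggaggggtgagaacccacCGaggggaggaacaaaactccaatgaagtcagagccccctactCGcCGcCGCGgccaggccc

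The 3 genes that fell did not all share a base composition at these starts. GC content was 69.0% in the Dlg1 window, against 42.3% in Dlg2 and 43.3% and 39.0% in the Dlgap1 windows. It was 68.7% in the Dlg4 window, and the median of all windows was 51.7%. The Dlg1 window held 24 CpG dinucleotides, more than 82.1% of the 33469 windows in the table held. The Dlg2 window held 3, the lower quartile of all windows. The Dlgap1 windows held 7 and 6, near the median of 7, and the Dlg4 window held 9. Motifs were searched on both strands. The palindrome CACGTG, the E-box, stood once in the Dlg1 window and in 6.42% of all windows, and TATAAA stood in the second Dlgap1 window and in 14.2% of all windows. TGACG, the core of the cAMP response element, was in 21.2% of all windows and in none of these 5. The window of Homer1, which did not pass and is not printed, held 14 CpG dinucleotides and 1 TATAAA match. These are matches of letters in annotated windows, and the counts do not show which start was used.

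Among the Dlg genes, Dlg2 codes for PSD-93, a close relative of PSD-95 that also anchors NMDA receptors and potassium channels. Dlg2 (ENSRNOG00000022635), which spans 2052 kb, had 33.1 and 30.8 CPM in the topotecan libraries, against 58.1 and 69.2 CPM in the DMSO libraries. The groups were well apart, although the DMSO libraries differed more from each other than the topotecan libraries did. The log2 fold change was -0.99 (SE 0.11, 95% interval -1.24 to -0.75, edgeR adjusted p = 1.04e-05).

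Dlg1 codes for SAP97, a MAGUK found in many cell types, which takes part in the delivery of AMPA receptors and in the polarity of epithelial cells. Dlg1 (ENSRNOG00000038597, 191 kb) had 10.1 and 10.6 CPM in topotecan, against 14.9 and 16.1 CPM in DMSO. Its log2 fold change of -0.59 (SE 0.14, edgeR adjusted p = 0.00454) was smaller than that of Dlg2, and its groups did not overlap either. The falls of glial markers given above were in these same libraries, which also gave the values of the other scaffold genes. Their part in the Dlg1 value was not tested.

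Dlg4 and Dlg3 are the shorter genes of the family. Dlg4 (ENSRNOG00000018526, 28.4 kb) codes for PSD-95, the most studied scaffold of the excitatory synapse. It had 16.1 and 15.7 CPM in topotecan, against 18.7 and 18.8 CPM in DMSO. The groups did not overlap, yet the log2 fold change of -0.24 (SE 0.13, 95% interval -0.51 to 0.03) did not pass the threshold (edgeR adjusted p = 0.151). Dlg3 (ENSRNOG00000002767, 52.2 kb), whose product SAP102 is a scaffold of NMDA receptors in young synapses, had 14.7 and 16.9 CPM in topotecan and 14.9 and 14.9 CPM in DMSO. One topotecan library lay just below the DMSO libraries and the other above them. The log2 fold change was 0.09 with a 95% interval from -0.21 to 0.38 (edgeR adjusted p = 0.652), which leaves out a fall of the size seen in Dlg2.

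The 4 Dlg genes together held 74.1 and 74.0 CPM in topotecan, against 107 and 119 CPM in DMSO. Dlg2 made up 44.7% and 41.7% of these family counts in topotecan, against 54.5% and 58.1% in DMSO. Dlg3 made up 19.9% and 22.9% in topotecan, against 13.9% and 12.5% in DMSO, and Dlg4 made up 21.8% and 21.2%, against 17.6% and 15.8%. The share of Dlg1 was 13.6% and 14.3% in topotecan and 14.0% and 13.5% in DMSO, so these overlapped. Shares within a library add up to the whole, so a fall of the largest raises the others. Neither Dlg3 nor Dlg4 was itself called higher. These are shares of counts and not of molecules, since the genes differ in transcript length. For Dlg2 the Wilson 95% intervals, which cover counting error only, ran from 39.5% to 46.8% over the topotecan libraries and from 52.7% to 59.9% over the DMSO libraries.

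**Figure D1:**
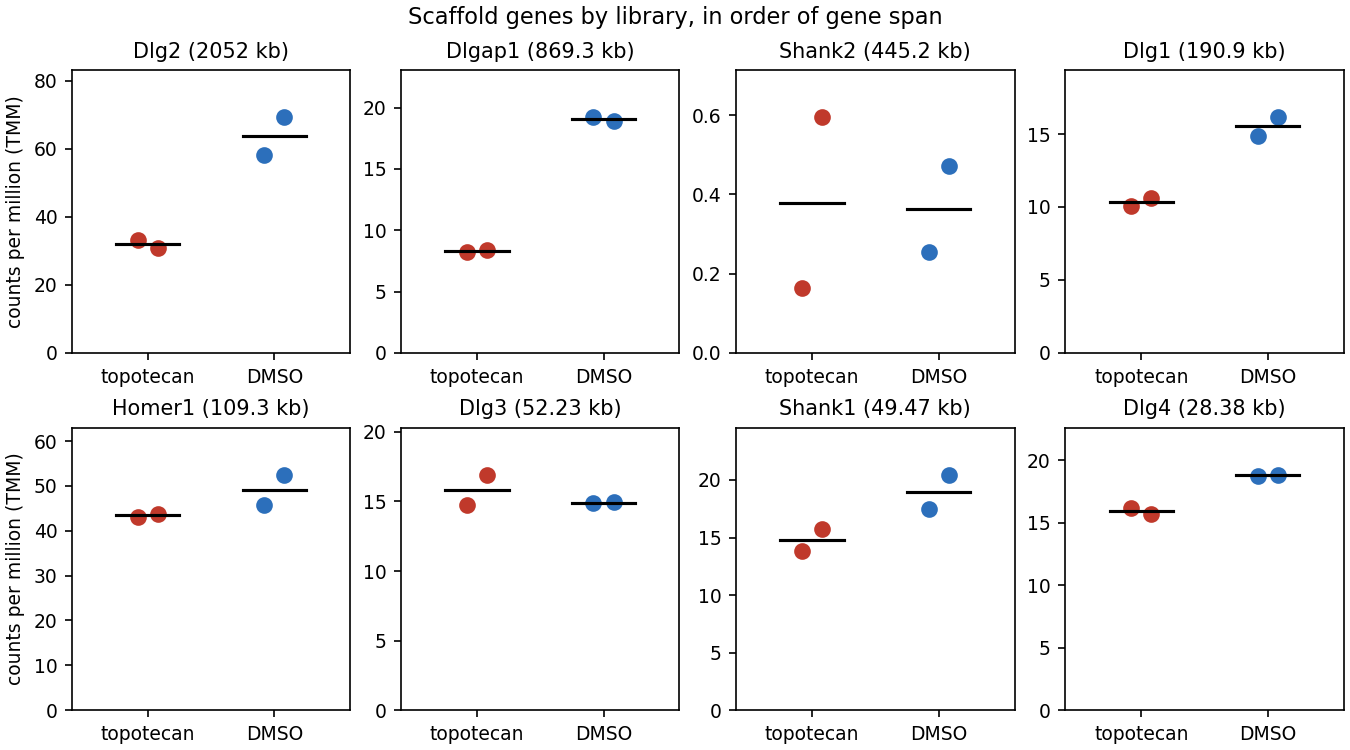
Level of each scaffold gene in every library, in CPM after TMM scaling (vertical axis, from 0), with topotecan (red) left of DMSO (blue), 1 point per library and a line at the mean of 2. Panels run from the longest gene to the shortest: Dlg2, Dlgap1 and Dlg1 show a wide gap between treatments, whereas the points of Shank2 and Dlg3 overlap.

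Dlgap1 (ENSRNOG00000016196, 869 kb) codes for GKAP, also called SAPAP1, the adaptor between the Dlg and Shank layers. It had the lowest log2 fold change of the 8 genes. The topotecan libraries held 8.22 and 8.36 CPM, against 19.2 and 18.9 CPM in DMSO. The libraries of each treatment lay close together and the treatments far apart. The log2 fold change was -1.20 (SE 0.14, 95% interval -1.50 to -0.90, edgeR adjusted p = 1.09e-05).

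The other Dlgap genes, which were not among the 9, did not share one direction. Dlgap4, a relative of Dlgap1 that spans 148 kb, had 232 and 234 CPM in topotecan, against 168 and 148 CPM in DMSO, and its log2 fold change was 0.56 (SE 0.09, edgeR adjusted p = 1.5e-04). Its rise kept its sign but missed the threshold with libraries scaled to short neuronal genes (edgeR adjusted p = 0.208). Under that scaling 1.86% of all genes were called higher, against 16.2% with TMM. Dlgap2 (710 kb) fell, with 14.2 and 14.1 CPM in topotecan, against 20.3 and 26.0 CPM in DMSO (log2 fold change -0.71, SE 0.14, edgeR adjusted p = 0.00146). Dlgap3 was below 1 CPM in every library. Dlgap2 and Dlgap3 are named here after their values were seen. Within a library, the ratio of Dlgap1 to Dlgap4 counts was 0.0355 and 0.0358 in topotecan, against 0.114 and 0.128 in DMSO. This ratio needs no scaling between libraries. In topotecan it stood at 29.5% of its DMSO value.

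The Shank proteins are the largest scaffolds of the set and join the glutamate receptor complexes to actin regulators. Shank1 (ENSRNOG00000019207, 49.5 kb) had 13.8 and 15.8 CPM in topotecan, against 17.4 and 20.5 CPM in DMSO. The topotecan values lay below the DMSO values, but the gap between the groups was smaller than the distance between the libraries of either treatment. The log2 fold change was -0.36 (SE 0.14, 95% interval -0.66 to -0.05) and missed the threshold (unadjusted p = 0.0241, edgeR adjusted p = 0.0585). Shank1 did pass when libraries were scaled by their totals alone (edgeR adjusted p = 0.0415), when they were scaled to short neuronal genes (5.8e-04) and without DMSO replicate 1 (0.00928).

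Shank2 (ENSRNOG00000050206) had counts of 5 and 15 in topotecan and 7 and 11 in DMSO. With so few counts the 95% interval of its log2 fold change ran from -1.37 to 1.43, and no change of the size found in Dlg2 or Dlgap1 could have been told from none. Shank2 spans 445 kb in the RefSeq annotation. The authors' annotation was not given in the sources used, so the low count of a gene with 8 transcripts in the table is reported as it stands.

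Homer1 binds Shank and the group I metabotropic receptors, and a short form of it, Homer1a, is induced by activity and loosens these links. Homer1 (ENSRNOG00000047014, 109 kb) had 43.1 and 43.7 CPM in topotecan, against 45.7 and 52.5 CPM in DMSO. The topotecan libraries were almost equal and lay just below the lower DMSO library. The log2 fold change was -0.18 (SE 0.11, 95% interval -0.41 to 0.05, edgeR adjusted p = 0.212). Without DMSO replicate 1 it was -0.26 (edgeR adjusted p = 0.0358), and without DMSO replicate 2 it was -0.07. The table counts 3 transcripts of Homer1 together, so the short and the long forms were not separated.

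**Figure D2:**
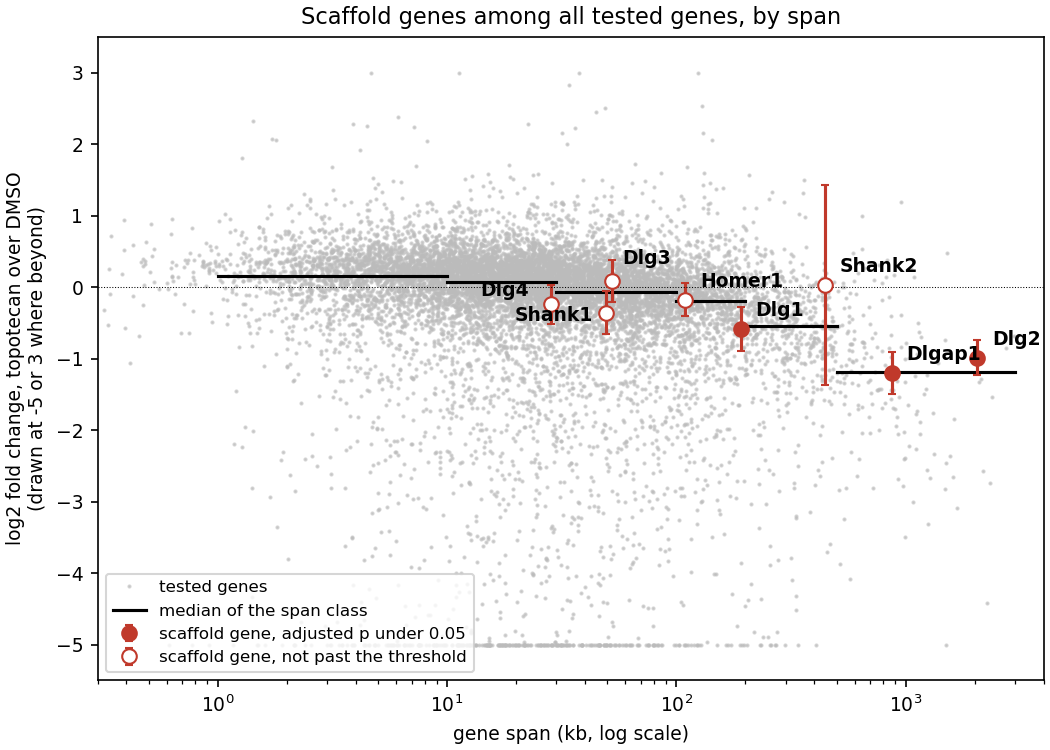
Log2 fold change of topotecan over DMSO (vertical axis) against the span of the gene in kb (horizontal axis, log scale) for all tested genes with a span (grey; values beyond -5 or 3 are drawn at those limits), with the median of each of 6 span classes (black lines; the outer classes are drawn from 1 kb and to 3000 kb) and the 8 scaffold genes (red, bars are 95% intervals). Dlg2 and Dlgap1 lie near the median of -1.19 of genes of 500 kb or more, and the 3 scaffold genes under 100 kb lie between -0.36 and 0.09.

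Many genes of like span had lower values than the scaffold genes that fell. Of 176 tested genes that span 500 kb or more, 77.8% were lower, with a median log2 fold change of -1.19. In that class 49.4% of genes had a lower value than Dlgap1 and 58.0% a lower value than Dlg2. Of 1119 genes of 100 to 200 kb, the class of Dlg1 and Homer1, 31.6% were lower and the median was -0.19. In this class 26.4% of genes lay below Dlg1 and 50.8% below Homer1. Of 3427 genes of 30 to 100 kb, the class of Shank1 and Dlg3, 24.6% were lower, with a median of -0.07. Shank1 had 29.1% of that class below it and Dlg3 67.3%. Of 3708 genes of 10 to 30 kb, the class of Dlg4, 19.4% were lower and the median was 0.06, with 27.6% of genes below Dlg4. In the class of Shank2, 200 to 500 kb, 55.5% of 602 genes were lower. Spans come from a RefSeq annotation that may differ from the authors' own, and single spans may be wrong.

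Ratios to Dlg4 within each library show how the scaffold genes shifted against one another, free of any scaling between libraries. The ratio of Dlg2 to Dlg4 counts was 2.05 and 1.97 in topotecan, against 3.10 and 3.67 in DMSO. The ratio of Dlgap1 to Dlg4 was 0.510 and 0.535 in topotecan, against 1.03 and 1.0 in DMSO, and that of Dlg1 to Dlg4 was 0.625 and 0.676, against 0.795 and 0.857. In each of these 3 pairs the topotecan libraries lay below the DMSO libraries, and on the log2 scale the differences were -0.75, -0.96 and -0.34.

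The ratio of Dlg3 to Dlg4 ran the other way, with 0.913 and 1.08 in topotecan, against 0.793 and 0.793 in DMSO, a log2 difference of 0.32. The ratio of Homer1 to Dlg4 overlapped between treatments, at 2.67 and 2.79 in topotecan and 2.44 and 2.79 in DMSO, with a log2 difference of 0.07. Of the 7 pairs computed, 5 had no overlap between treatments. All of these but Dlgap1 to Dlgap4 share Dlg4 as partner, so they are not independent. How often other pairs of genes show no overlap was not computed. An exact two-sided permutation test over the 4 libraries gave p = 0.3333 for each of these 5, adjusted to 0.4667 over the 7 pairs, and with 2 libraries against 2 it cannot give less. The pairs that need Shank3 or Homer2 were not analysed here.

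**Figure D3:**
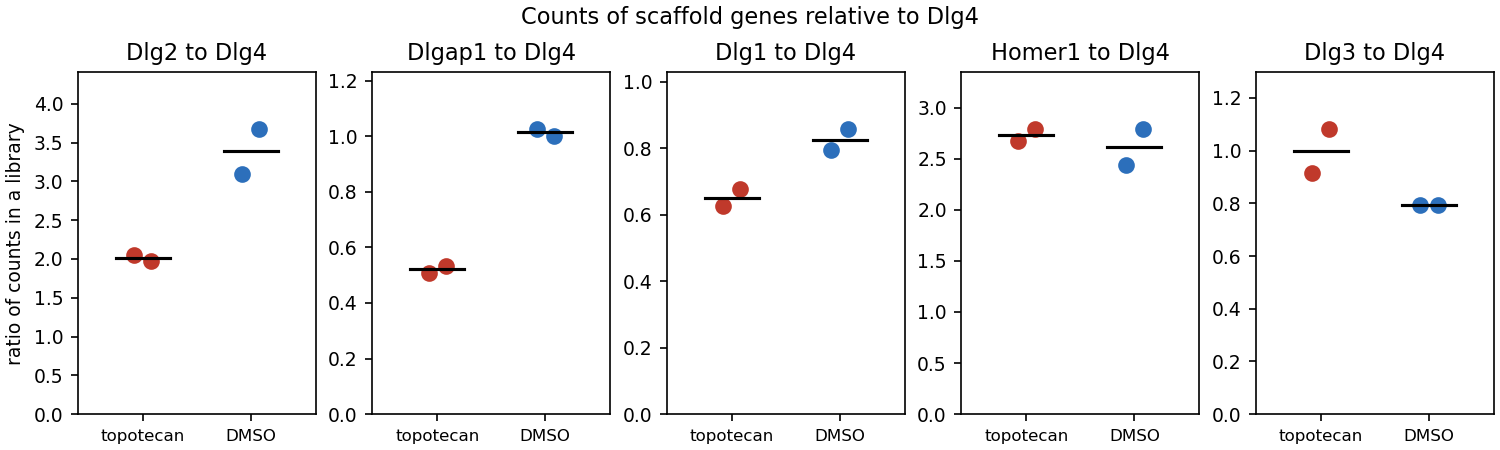
Counts of 5 scaffold genes divided by the counts of Dlg4 in the same library (vertical axis, from 0), with topotecan (red) left of DMSO (blue), 1 point per library and a line at the mean of 2. The ratios of Dlg2, Dlgap1 and Dlg1 are lower in both topotecan libraries, that of Dlg3 is higher in both, and that of Homer1 overlaps.

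The other scaffolds of the postsynaptic density held genes of both directions. Of 28 tested members of this list 10 were lower and 3 higher, with a median log2 fold change of -0.19, and 7 of the 10 lower genes were among the 12 that span 100 kb or more. The shares were 35.7% lower and 10.7% higher, beside 23.5% and 16.2% of all genes tested. Of all 1897 tested genes that span 100 kb or more 43.5% were lower, and of the 9880 under 100 kb 20.1% were lower and 18.5% higher. Frmpd4 (647 kb), whose product Preso binds PSD-95, was at -1.68 (SE 0.15), with 7.44 ± 0.369 CPM in topotecan and 23.8 ± 3.995 CPM in DMSO (SD, n = 2 each). Lrrc7, the gene of densin (502 kb), was at -1.31 (SE 0.18). Erbin (102 kb), a relative of densin that is also found in epithelia, was at -1.74 (SE 0.19). Cnksr2 (249 kb), a scaffold of Ras signalling, was at -1.04 (SE 0.15). The members that rose were Dlgap4, Sharpin, which binds Shank, and Lin7b, a small PDZ protein that pairs with the MAGUK gene product of Cask. None of the 3 passed with libraries scaled to short neuronal genes. Under that scaling 1.86% of all genes were called higher, against 16.2% with TMM.

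Of the other MAGUK genes and their relatives 14 were tested, of which 7 were lower and 1, Magi3, was higher, with a median of -0.53, and Magi3 was not called with the neuronal scaling. Over all genes tested 23.5% were lower and 16.2% higher with TMM, and 1.86% were higher with the neuronal scaling. Of the 14 genes 10 span 100 kb or more, of which 6 were lower, beside 43.5% of all genes of that span. Among those with the lowest p-values were Mpp5, Tjp1 and Mpp7, which code for tight junction or cell polarity scaffolds. The log2 fold changes of Mpp5 (56.6 kb), Tjp1 (245 kb) and Mpp7 (267 kb) were -1.35 (SE 0.15), -1.08 (SE 0.16) and -1.47 (SE 0.23). Such junction genes are also expressed by glia, whose markers fell in the same libraries, and that part was not tested.

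Of 33 tested signalling enzymes of the postsynaptic density 13 were lower and 4 higher (median -0.20). These are 39.4% and 12.1%, beside 23.5% and 16.2% of all genes. Of the 17 enzyme genes that span 100 kb or more 10 were lower, beside 43.5% of all genes of that span. Kalrn, an exchange factor for Rac in dendritic spines that spans 606 kb, was at 27.0 ± 0.0570 CPM in topotecan and 54.6 ± 5.49 CPM in DMSO (log2 fold change -1.01, SE 0.11). Cit, the citron kinase gene (162 kb), was at -1.55 (SE 0.16). Camk2g, a subunit of the calcium and calmodulin dependent kinase (59.1 kb), was at -0.80 (SE 0.09). Ppp3ca, the catalytic subunit of calcineurin (274.5 kb), was at -0.59 (SE 0.09). Cit is also needed by dividing cells, and progenitor markers fell in the same libraries, but their part in the Cit value was not tested. The 4 that were higher were Cdk5, Plk2, Abhd17c, which removes palmitate from PSD-95, and Mdm2, a ubiquitin ligase. They span less than 100 kb each, and none of them was called higher with the neuronal scaling, under which 1.86% of all genes were.

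The membrane proteins that the scaffolds hold were counted in a list of 47 tested genes, of which 15 were lower (median -0.18). The somatostatin receptor gene Sstr2 was the 1 higher gene, though not with the neuronal scaling, which left 1.86% of all genes higher. The share that was lower, 31.9%, stood beside 23.5% of all genes, and of the 23 that span 100 kb or more 10 were lower, a share close to that of all genes of such span. Nlgn1 (925 kb), an adhesion protein that binds the third PDZ domain of PSD-95, was at 9.0 ± 1.29 CPM in topotecan and 37.3 ± 3.80 CPM in DMSO (log2 fold change -2.06, SE 0.14). The kainate receptor gene Grik2 was at -1.31 (SE 0.13) and the latrophilin gene Adgrl3 at -2.0 (SE 0.12). Kcnj10, a potassium channel of astrocytes, had the smallest p of the list, at 0.0723 ± 0.00994 CPM in topotecan and 28.6 ± 3.64 CPM in DMSO. Of the NMDA receptor subunits, named after their values were seen, Grin2a (424 kb) and Grin2b (478 kb) fell, with log2 fold changes of -2.07 (SE 0.22) and -1.25 (SE 0.14). Grin1 (26.9 kb) was at 0.01, without passing (edgeR adjusted p = 0.948). Grin3a (199.55 kb, -0.98, edgeR adjusted p = 0.0691, overlapping groups) and Grin2d (40.1 kb, -0.68, edgeR adjusted p = 0.17) did not pass either. Grin2c (18.7 kb) was below the low-count filter.

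Activity-regulated genes, a list that holds Homer1, showed 6 genes higher and 2 lower of 18 tested (median 0.25). The shares were 33.3% higher and 11.1% lower, beside 16.2% and 23.5% of all genes. Of the 18 genes 17 span under 100 kb, where 18.5% of all genes were higher. Arc (3.455 kb), whose product acts at the postsynaptic density in AMPA receptor uptake, was lower. It was at 21.8 ± 0.694 CPM in topotecan and 37.1 ± 3.195 CPM in DMSO (log2 fold change -0.77, SE 0.12). Rgs2, Rheb and Plk2 were higher, by 0.63 (SE 0.09), 0.51 (SE 0.09) and 0.46 (SE 0.08). When libraries were scaled to short neuronal genes, no gene of this list was called higher and 5 were called lower. Under that scaling 1.86% of all genes were called higher and 40.3% lower.

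**Figure D4:**
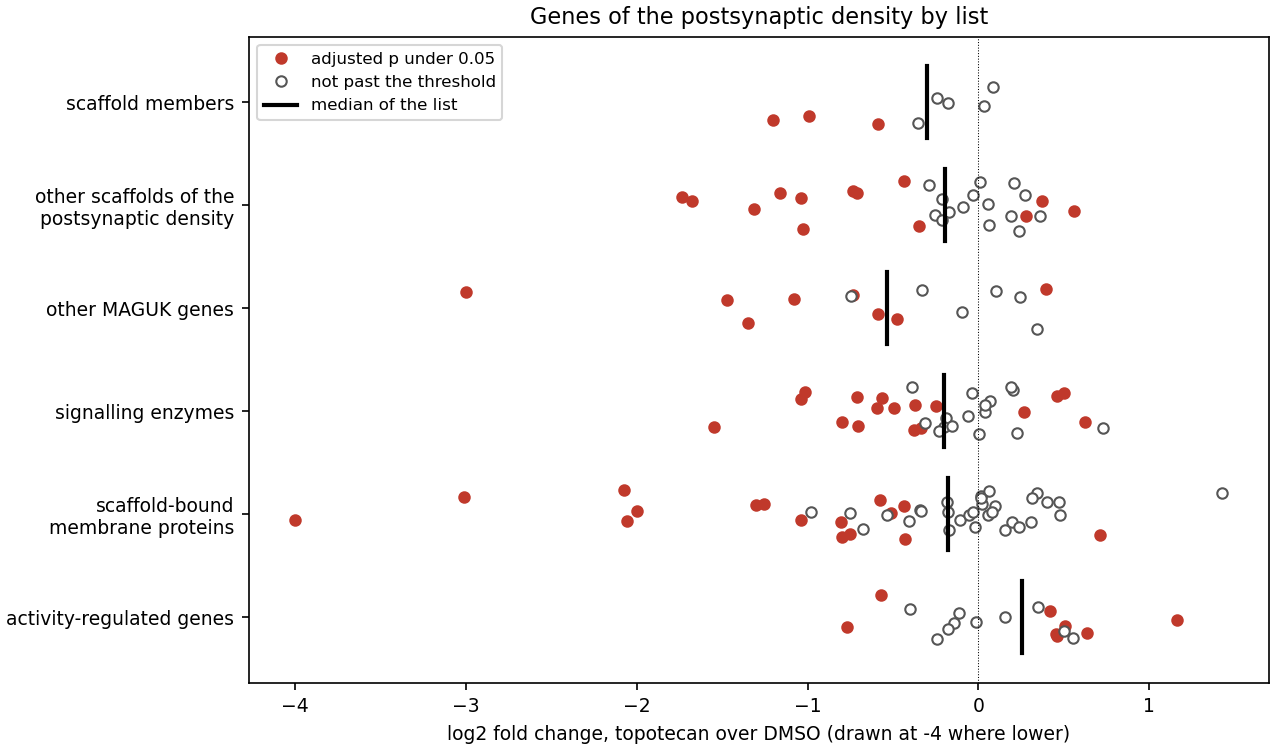
Log2 fold change of topotecan over DMSO (horizontal axis, drawn at -4 where lower) for the tested genes of the scaffold set and of 5 related lists (rows, 1 point per gene with vertical scatter added), filled red where the edgeR adjusted p is under 0.05, with a black bar at the median of each list. Each list but the activity-regulated one has a median below 0, from -0.18 to -0.53, and all hold genes that did not pass.

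By Euclidean distance of centred log2 CPM over the 4 libraries, the genes whose log2 CPM averaged 2 or more and whose pattern was most like that of Dlgap1 were Csgalnact1 (0.0336), Ska3 (0.0446) and Brinp1 (0.0497). The genes most like Dlg2 were Cdh7 (0.0427), Samd12 (0.0492) and Zwilch (0.0512). For Dlg3, the member with the highest log2 fold change, they were Hnrnpa1 (0.0233), Coa7 (0.0265) and Tomm7 (0.0272). Csgalnact1 had 21.6 and 22.3 CPM in topotecan, against 49.4 and 49.4 CPM in DMSO. With 4 libraries in 2 groups, such likeness rests mostly on the size of the difference between treatments.

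The calls of Dlg2, Dlgap1 and Dlg1 were the same under each of the 11 processing alternatives, while those of Shank1, Homer1 and Dlg4 were not. Dlg3 and Shank2 did not pass under any of them. Over these alternatives the log2 fold change ran from -1.54 to -1.18 for Dlgap1, from -1.34 to -0.86 for Dlg2 and from -0.93 to -0.53 for Dlg1. Scaled to 17 neuronal genes that span under 30 kb, Dlg4 (edgeR adjusted p = 0.0053), Shank1 and Homer1 (0.00381) also passed as lower. Of the 8 scaffold genes 6 were then called lower, beside 40.3% of all genes. The scaling used the summed counts of the 17 genes, so the most abundant of them weigh most. In the list of 30 tested genes they were drawn from, 15 were higher and 3 lower with TMM (median 0.24). That scaling moved the median of all genes to -0.35, and of its calls over all genes 4896 were lower and 226 higher, against 2854 lower and 1970 higher with TMM. Relative to the median of all genes, Dlgap1 was at -1.19, Dlg1 at -0.58 and Dlg4 at -0.23 under both scalings. Dlg2 was at -0.99 under the neuronal scaling and -0.98 with TMM. A change of scaling shifts all genes by nearly the same amount, so these distances had to stay alike and are no test of the falls. The sign of Dlg3 turned to -0.26 under the neuronal scaling (edgeR adjusted p = 0.275).

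**Figure D5:**
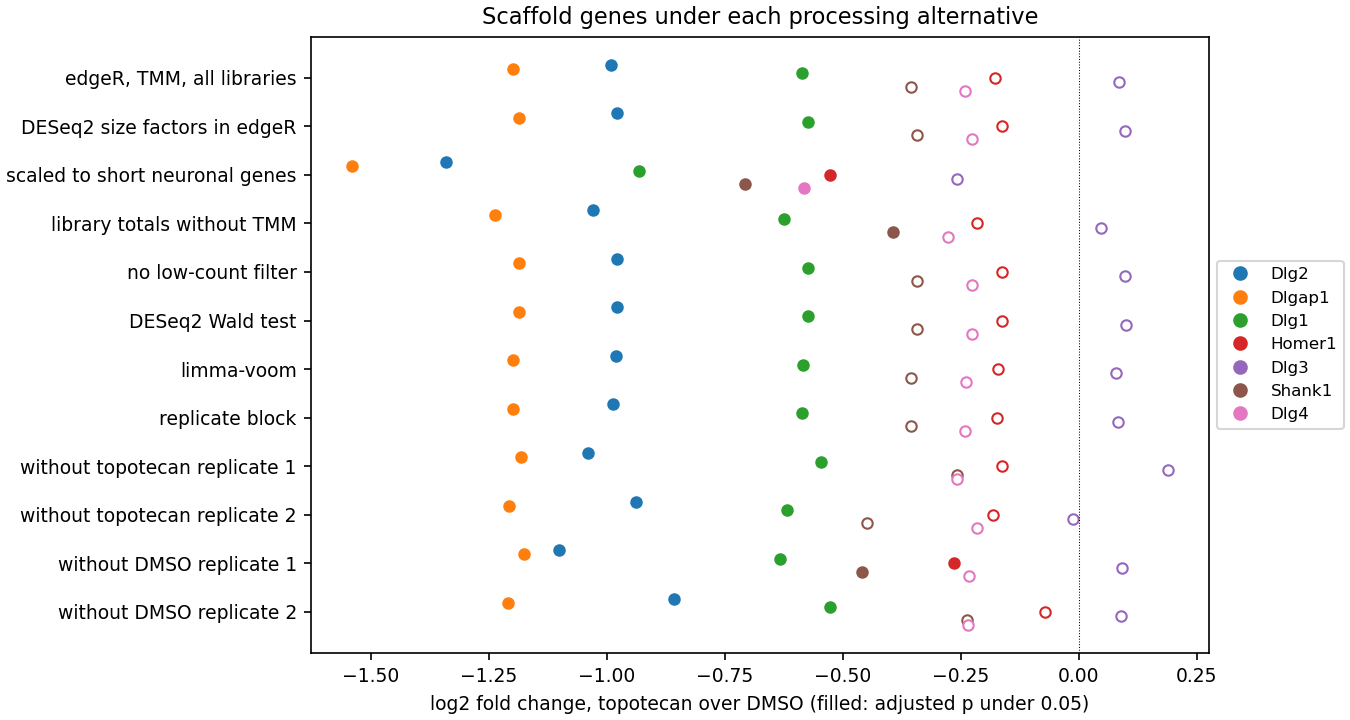
Log2 fold change of topotecan over DMSO (horizontal axis) of 7 scaffold genes under the main processing and 11 alternatives (rows), with a filled point where the adjusted p is under 0.05 and an open point where it is not. Dlgap1, Dlg2 and Dlg1 are filled in every row, Dlg3 in none, and scaling to short neuronal genes shifts all points to the left. Shank2 is left out for its few counts.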

How the data were processed

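RNA-seq was measured in 4 libraries of rat cortical neurons of embryonic day 18, 2 given topotecan and 2 given DMSO, with groups and replicate numbers as the sample titles give them. The authors deposited 1 table of raw gene counts. STAR and edgeR are the tools named, per the submitters' processing notes. Versions, genome build, annotation, counting tool and strand setting were not given in the sources used, so overlapping and antisense genes can share reads. Per the labels the kit was one for small RNA, while 96.3% to 97.0% of the counts fell on protein-coding genes. The table held 22641 rows for 21648 identifiers, and 792 identifiers that stood on several rows with equal counts were used once. Where identifiers shared a symbol, the one with most counts was used.

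From the counts, edgeR 4.0.16 (R 4.3.3) fitted its quasi-likelihood test with treatment as the only term, TMM scaling and filterByExpr (minimum count 10, total 15), with p-values adjusted over 12162 genes by Benjamini-Hochberg and a threshold of 0.05. The fit has 2 residual degrees of freedom. SE is the ratio of the log2 fold change to the root of F, and the 95% interval uses the fit's total degrees of freedom. CPM are counts per 1e6 after TMM scaling. Library totals (22957786 to 31181382) set the precision, and the biological coefficient of variation was 0.0831. Replicates differed by more than sampling noise (chi-square per degree of freedom 9.34 in topotecan and 13.0 in DMSO). The fit was tested on simulated data. Ratios within a library used counts + 0.5. Spans come from RefSeq on GRCr8.

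The members and lists were chosen with earlier results of these data known. The named genes were all members, the 4 smallest p-values of each pathway list, the 2 most abundant of each cell type list, Top1, the ratio partners and the 3 nearest patterns of the 2 lowest members and the highest. One gene that the rule names is not reported here. Cell type genes are printed where they stand beside a scaffold result. Endothelial (1 of 2 tested lower), fibroblast and mural (2 of 4 lower, 1 higher), glutamatergic (2 of 14 lower, 7 higher) and interneuron (4 of 12 lower, 4 higher) markers were counted too. Of all genes tested 23.5% were lower and 16.2% higher. Alternatives were DESeq2 1.42.0, its size factors in edgeR, limma 3.58.1 with voom, library totals, scaling to 17 short neuronal genes, no count filter, a replicate block and leaving out each library. The deviations of same-numbered libraries did not correlate (r = -0.04), so the numbers were not taken to pair them.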

Additional observations from a re-analysis of the deposited data

How the results depend on the processing

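Over all genes, the main counts were 2854 lower and 1970 higher. Scaled to short neuronal genes they were 4896 and 226, and without 1 library the higher genes numbered from 1208 (without topotecan replicate 1) or 1260 (without topotecan replicate 2) to 2470. Of the scaffold genes 3 were lower, 6 under the neuronal scaling, and 3 to 5 without 1 library, with 5 without DMSO replicate 1, when Shank1 and Homer1 also passed. The replicate block left the scaffold calls at 3 lower and 0 higher, and gave 2746 lower and 1822 higher genes. No pairing of the replicate numbers is given by the labels.

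Under the neuronal scaling the lower genes numbered 733 under 10 kb, 1300 of 10 to 30 kb, 1560 of 30 to 100 kb and 632 of 100 to 200 kb, against 427, 720, 842 and 354 with TMM. That scaling also gave 16 lower and 0 higher among the other scaffolds, 26 lower and 0 higher among membrane proteins, 5 lower and 0 higher among activity-regulated genes, and 0 higher among MAGUK genes and among signalling enzymes. Of all genes 40.3% were lower and 1.86% higher under it. Scaling by library totals and DESeq2 each left 0 MAGUK genes higher. Without 1 library, other scaffolds numbered 6 to 10 lower and 2 to 5 higher, and signalling enzymes 8 to 15 lower. Higher membrane proteins were 2 with DESeq2 size factors, limma-voom or the block, and 4 with no filter. Lower activity-regulated genes were 1 with DESeq2 size factors, DESeq2, limma-voom or the block. Over all genes these settings, library totals and no filter called 18.8% to 24.9% lower and 13.6% to 16.9% higher.

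Signs turned mostly where values were near 0. Dlg3 was at -0.26 under the neuronal scaling and from -0.011 to 0.19 without 1 library. Shank2, with 38 counts in all, was at -0.31 under the neuronal scaling, -0.0054 with library totals, -0.17 with limma-voom, -0.016 with the block, and from -1.10 to 0.74 without 1 library. Under the neuronal scaling Stmn2 was at -0.30, Slc17a7 at -0.027, Esam at -0.10 and Fn1 at -0.28, and Fn1 was from -0.042 to 0.18 without 1 library. The log2 difference of the Homer1 to Dlg4 ratio ran from -0.030 (without DMSO replicate 1) to 0.16 without 1 library, and that of Shank2 to Dlg4 from -0.81 to 1.01. The cause of these changes was not tested. The shares by transcript length were not run, since no transcript lengths were at hand. The counts of Shank2 were too few to show a change of the size found in Dlg2.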
